A study of Mus musculus with 19 samples.

Results

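The transcripts described here encode RNA polymerase I, RNA polymerase III and the general factors that recruit, restrain or terminate them. They were chosen by symbol: protein-coding genes whose names begin with Polr1, Polr3 or Gtf3c, together with Taf1a to Taf1d, Rrn3, Ubtf, Ttf1, Brf1, Brf2, Bdp1, Maf1 and Gtf3a. The rule found 33 of the 52143 gene identifiers in the table, and all 33 passed the filter on low counts. The samples are poly(A) RNA of mouse induced pluripotent stem cells (iPSCs) grown as 10 lines. Of these, 4 control lines (7 libraries) and 4 db/db lines (8 libraries), in which the leptin receptor gene carries the db allele on both chromosomes, started from fibroblasts of embryonic day 14.5 embryos bred from OB-Rdb/+ heterozygotes. The db/db iPSCs were also the source of 2 lines (4 libraries) in which the mutation was corrected with CRISPR-Cas9; which db/db line each came from was not given in the labels. All lines were reprogrammed with the same STEMCCA lentivirus, which carries Oct4, Sox2, Klf4 and cMyc. Control lines 1 and 3 share the name A5, control lines 2 and 4 the name B1, db/db lines 1 and 3 the name db5, and db/db lines 2 and 4 the name db7. The names of the 4 control lines also carry B6, and they do not state whether these lines were wild type or heterozygous. Lines 1 and 2 of both groups carry the prefix a and lines 3 and 4 the prefix b, whose meaning is not given, and the names of the corrected lines have no such prefix. Whether duplicate libraries are separate cultures, or lines with the same name separate embryos, is not stated, so the p-values cover only the spread among the lines sequenced.

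RNA polymerase I transcribes the repeated ribosomal DNA into the precursor of the large ribosomal RNAs, and RNA polymerase III makes transfer RNAs, the small 5S ribosomal RNA and other short RNAs such as 7SK and the RNA of RNase P. Both enzymes supply the translation machinery, and their output in growing cells is known to be raised by MYC and the mTOR pathway and lowered by RB proteins and MAF1. RNA polymerase III exists in 2 forms that differ in a single subunit: POLR3G is known from pluripotent and other undifferentiated cells, and POLR3GL from differentiated tissue.

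Promoter windows of 3 members are printed because the first of these genes was lower in the corrected lines and the others are the pair of alternative subunits. The sequences are the 250 bases before the RefSeq start in build GRCm38.p6, read 5′ to 3′ on the gene's strand, and capitals mark the E-box CACGTG, a motif that MYC and MAX are known to bind. The Rrn3 window lies at chr16:13780449-13780698 on the plus strand, the Polr3gl window at chr3:96594182-96594431 on the minus strand and the Polr3g window at chr13:81711014-81711263 on the minus strand.
Rrn3: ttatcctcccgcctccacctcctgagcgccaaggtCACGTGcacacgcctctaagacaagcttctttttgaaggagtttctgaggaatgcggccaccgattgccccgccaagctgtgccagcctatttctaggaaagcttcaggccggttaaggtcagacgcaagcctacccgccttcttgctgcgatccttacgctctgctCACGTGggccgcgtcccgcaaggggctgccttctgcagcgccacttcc
Polr3gl: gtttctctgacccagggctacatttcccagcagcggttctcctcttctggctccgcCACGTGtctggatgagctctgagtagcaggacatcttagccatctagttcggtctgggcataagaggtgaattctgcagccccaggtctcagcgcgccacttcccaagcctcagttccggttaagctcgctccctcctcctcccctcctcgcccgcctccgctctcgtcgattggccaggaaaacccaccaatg
Polr3g: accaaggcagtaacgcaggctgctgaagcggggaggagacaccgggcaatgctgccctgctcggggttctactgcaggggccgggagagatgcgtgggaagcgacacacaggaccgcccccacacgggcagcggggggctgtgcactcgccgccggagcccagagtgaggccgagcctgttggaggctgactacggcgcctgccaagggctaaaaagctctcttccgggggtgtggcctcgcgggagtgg
Rrn3 has 2 E-boxes in this window, beginning 215 and 48 bases before the start, Polr3gl has 1, beginning 194 bases before it, and Polr3g has none. Of the 33 members, 27 had a RefSeq promoter entry. CACGTG, which reads the same on both strands, stood in 4 of these 27 (14.8%), namely Gtf3c6, Polr3c, Polr3gl and Rrn3, against 6.86% of 27025 genes. Of the 12 members with an entry that fell in corrected against db/db lines, 4 held CACGTG. The others, Polr1b and Polr1e among them, did not, and only Rrn3 held 2. The ETS core CCGGAAG, on either strand, stood in 10 of 27 (37.0%), Polr3g among them, against 7.83% of genes. The GC box GGGCGG stood in 12 (44.4%, against 35.4%) and TATAAA in 1 (3.70%, against 14.3%). A match is a description of letters and not evidence of binding.

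Library totals ran from 27333914 to 41203703 estimated counts (median 34455891), and the member with the fewest counts, Polr3gl, had at least 223 in every library. Pluripotency markers (10 genes, among them Pou5f1, Sox2 and Nanog) summed to 6612 to 7085 CPM (counts relative to library size) in control, 7084 to 7498 in db/db and 6438 to 6444 in corrected lines, so the markers of the labelled cell type were present in every line. Counts of Pou5f1 (Oct4), Sox2 and Klf4 in this sum may include transcripts of the reprogramming vector. Fibroblast markers (7 tested, Lum below the filter) summed to 210.2 to 292 CPM in control, 104 to 163 in db/db and 140.5 to 179.6 in corrected lines. Of the germ-layer markers, T and Mesp1 did not pass the filter. Gene-level counts cannot tell the db transcript of the leptin receptor, which is misspliced, from the normal one, so this gene does not check the labels. In bulk RNA such as this, fewer cells of a type and less RNA per cell cannot be told apart.

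Per kilobase of the longest coding transcript, which need not be the form these cells use, Taf1d stood highest over all lines at 155 CPM per kb. Polr1d (99.1), Polr1c (88.8), Rrn3 (80.6) and Ubtf (76.3 CPM per kb) followed. The lowest levels on this scale were those of Polr3k (7.48), Brf2 (8.19) and Polr3gl (8.31 CPM per kb). Most of the highest levels thus belonged to Pol I factors and to the subunits that both enzymes share.

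The corrected lines stood apart from the others. Their members had a median level of -0.25 on the log2 scale in each of the 2 lines relative to the control mean, while the 4 db/db lines lay between 0.00 and 0.04. In 21 of 33 members both corrected lines were below all 8 other lines, an arrangement found in 20.4% of the 19700 genes tested. In 4 members (Polr3g, Polr3k, Gtf3a and Gtf3c1) both were above all 8, against 21.3% of genes. Because the corrected lines enter both of their comparisons, these are not independent, and the values of each are given side by side.

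**Figure D1:**
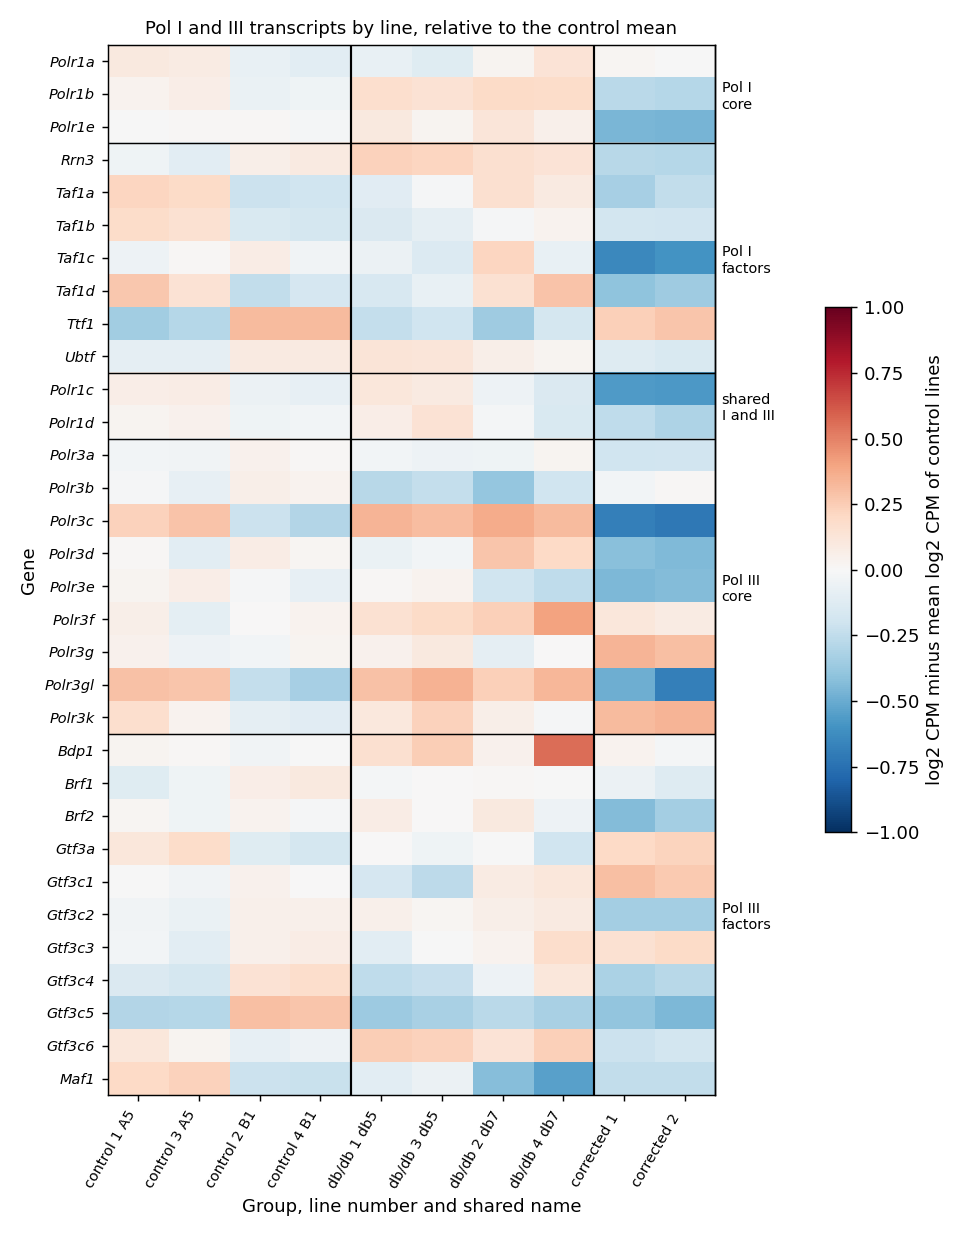
Colour shows the log2 CPM (counts scaled to library size) of 32 members in each of the 10 lines, minus the mean of the 4 control lines, with genes grouped by enzyme and lines ordered by group and shared name. The 2 corrected columns are blue for most genes, with a median of -0.25 in each, while lines of one shared name look alike.

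In the quasi-likelihood test of edgeR, adjusted by Benjamini and Hochberg over all genes, 15 of 33 members fell and 3 rose in corrected against db/db lines. Of all genes tested, 18.0% fell, 18.7% rose and 36.7% were called in either direction. The members' median log2 fold change was -0.26, beside 0.02 for all genes. Genes of at least 10 CPM were also lower in the corrected lines on every chromosome that holds a member. Their medians ran from -0.219 to -0.0009 on the log2 scale, relative to the median of the other names. The part of this shift in the members' median was not tested. Against control lines, 14 members fell and 2 rose, where 17.0% of all genes fell, 16.2% rose and 33.2% were called. That median was -0.28, beside -0.01. Scaling by library size alone moved the median of all genes by 0.17 and 0.13. Under it 11 members fell and 7 rose against db/db, and 8 fell and 5 rose against control, but relative to all genes the members' medians were -0.28 and -0.27, as under the TMM scaling used (-0.28 and -0.27). The calls lost under it were those of Ubtf, Polr1d, Polr3a and Polr3e against db/db, and of Polr1b, Polr1d, Rrn3, Polr3a, Polr3d and Polr3gl against control. With each shared name summed to a single unit, 10 members fell and 0 rose against db/db (19 at an unadjusted p under 0.05), where 15.5% of genes were called and 7.81% fell. Against control 6 fell and 0 rose (17 at an unadjusted p under 0.05), where 12.1% of genes were called and 6.25% fell. The 10 were Polr1b, Polr1c, Polr1e, Rrn3, Taf1c, Polr3c, Polr3d, Polr3gl, Gtf3c2 and Gtf3c6, and the 6 were Polr1c, Polr1e, Taf1c, Polr3c, Polr3e and Gtf3c2. Each corrected line weighed on the counts: 10 members were called against db/db without line 1 and 11 without line 2, and against control 4 and 5, of which Polr1c, Polr1e, Taf1c and Gtf3c2 fell whichever line was left out. With the corrected lines also summed, edgeR called 0 members (10 and 6 at an unadjusted p under 0.05) and 0.0% and 0.0179% of genes. The first value of each pair is against db/db and the second against control. In this fit the corrected group was 1 unit, with no spread of its own. For db/db against control the same fit called 0.0268% of genes, and the cause of the lost calls was not tested.

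**Figure D2:**
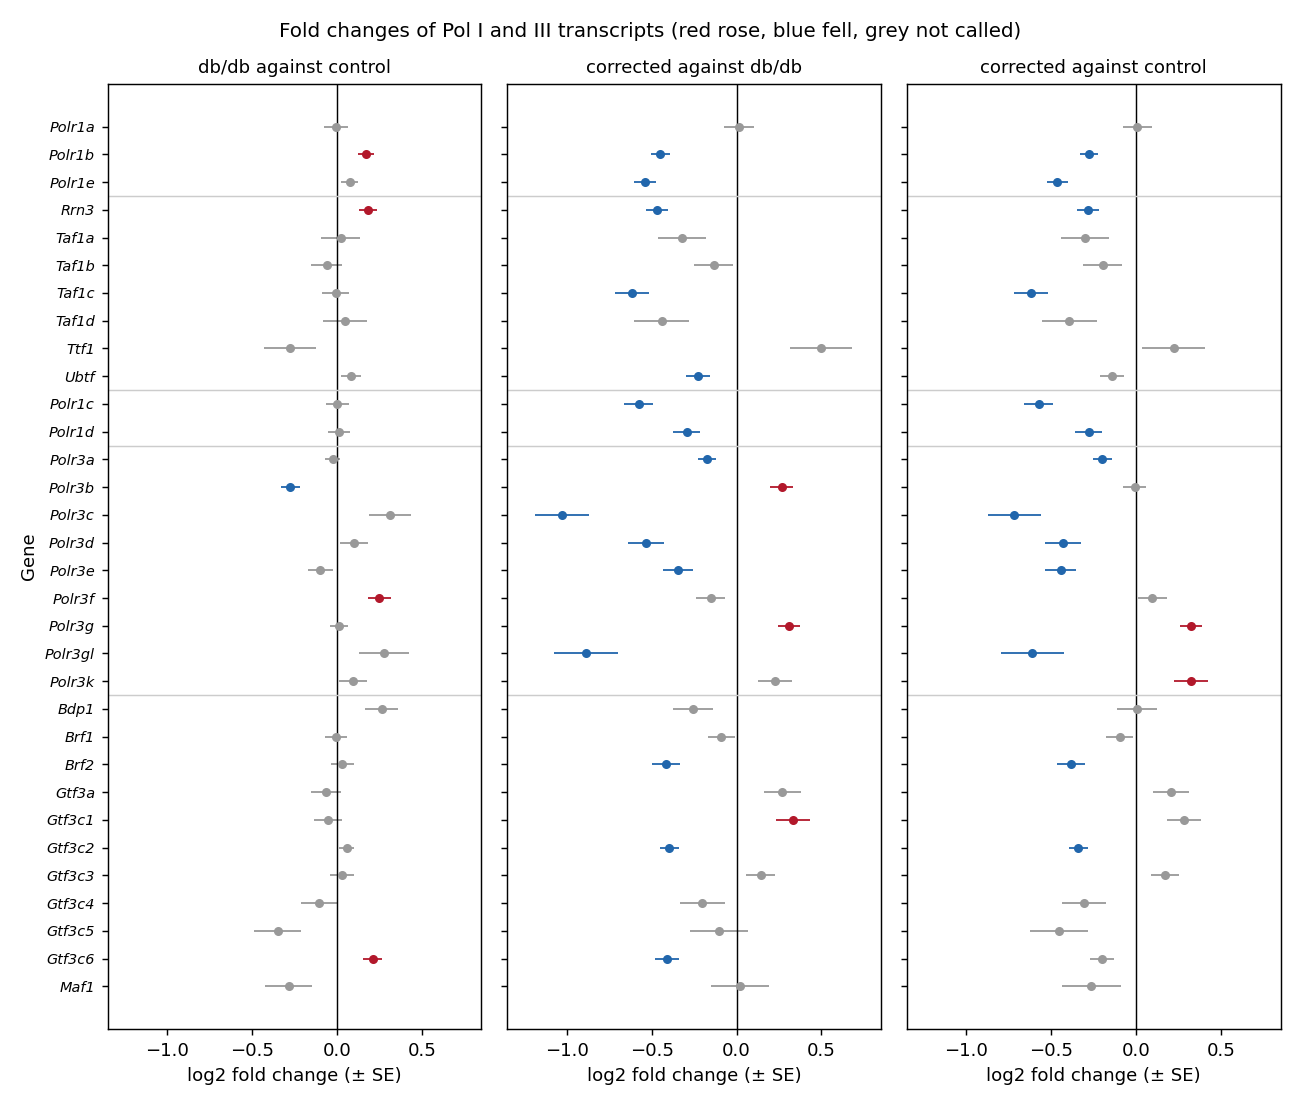
Points are log2 fold changes of 32 members from the edgeR fit on 10 lines, with bars of 1 standard error, for db/db against control (left), corrected against db/db (middle) and corrected against control (right). Red members rose, blue members fell and grey members were not called; 15 blue points stand left of 0 in the middle panel and 13 in the right one.

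Of the Pol I subunits under current symbols, Polr1b and Polr1e fell in the corrected lines and Polr1a did not pass the test. Polr1e, a subunit of the heterodimer that helps the enzyme start (chr4:45018583-45036565, plus strand), measured 33.2, 33.6, 33.7 and 32.9 in the 4 control lines, 35.8, 36.4, 34.1 and 34.5 in the 4 db/db lines and 24.3 and 24.2 in both corrected lines (CPM). All 4 db/db values were above all control values, and both corrected values were below all 8 others. Its log2 fold change was -0.54 ± 0.06 (SE) against db/db (edgeR, adjusted p = 0.000277) and -0.46 ± 0.06 against control (adjusted p = 0.000683). Polr1b, the smaller of the catalytic subunits, measured 197, 184, 201 and 187 in the 4 control lines, 215, 219, 213 and 218 in the 4 db/db lines and 159 and 158 in both corrected lines (CPM). Here too the 3 groups did not overlap, with db/db highest and corrected lowest. The log2 fold change of Polr1b was -0.45 ± 0.06 against db/db (edgeR, adjusted p = 0.000392) and -0.28 ± 0.06 against control (adjusted p = 0.00475). Polr1a, the largest subunit, measured 251, 223, 248 and 218 in the 4 control lines, 223, 239, 215 and 258 in the 4 db/db lines and 238 and 234 in both corrected lines (CPM). The groups overlapped fully, and the corrected lines lay inside the range of the others (log2 fold change 0.01 ± 0.09 against db/db, edgeR adjusted p = 0.915). The 3 Pol I subunits listed under older symbols, which the naming rule does not reach, fell in both comparisons: Cd3eap (log2 -0.72 against db/db), Znrd1 (-0.48) and Twistnb (-0.37).

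The subunits Polr1c and Polr1d, which form a heterodimer common to both enzymes, fell in both comparisons. Polr1c measured 130.3, 119.9, 131 and 118 in the 4 control lines, 135, 120.3, 132 and 112 in the 4 db/db lines and 83.9 and 83.7 in both corrected lines (CPM). Control and db/db lines overlapped, and the corrected lines were below them all. Polr1c had a log2 fold change of -0.58 ± 0.09 against db/db (edgeR, adjusted p = 0.000893) and -0.57 ± 0.09 against control (adjusted p = 0.00113). Polr1d had log2 fold changes of -0.29 and -0.28 (edgeR, adjusted p = 0.0175 and 0.0235), and was not called under library-size scaling. Among 7 subunits and partners that these enzymes share with Pol II or other complexes, 4 fell and 0 rose in each comparison, with medians of -0.39 and -0.28. Of all genes tested, 18.0% fell against db/db and 17.0% against control. Tbp, the TATA-binding protein that sits in both SL1 and TFIIIB, fell in both (log2 -0.39 and -0.21), as did Polr2h, a subunit common to all 3 polymerases (-0.50 and -0.58).

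Among the 7 Pol I factors, Rrn3, Taf1c and Ubtf fell against db/db, and Rrn3 and Taf1c also fell against control. The shares of these factors called were near those of all genes (36.7% and 33.2%). Rrn3 (also called TIF-IA) carries the growth-controlled, initiation-competent state of Pol I and lies at chr16:13780708-13814839, plus strand. Its values were 275, 295, 263 and 300.5 in the 4 control lines, 331, 317, 329 and 312 in the 4 db/db lines and 234 and 232 in both corrected lines (CPM). The 3 groups formed separate bands, db/db above control above corrected. The log2 fold change of Rrn3 was -0.47 ± 0.07 against db/db (edgeR, adjusted p = 0.000711) and -0.28 ± 0.07 against control (adjusted p = 0.00944). Taf1c, a subunit of the promoter selectivity factor SL1, measured 33.7, 36.7, 35.3 and 34.2 in the 4 control lines, 33.6, 40.6, 31.8 and 33.2 in the 4 db/db lines and 22.4 and 23.1 in both corrected lines (CPM). Only the corrected lines stood clear of the rest. Taf1c had a log2 fold change of -0.61 ± 0.10 and -0.62 ± 0.10 in the same comparisons (edgeR, adjusted p = 0.00149 and 0.00172); its gene model overlaps a pseudogene on its own strand, between which reads could be split. Ubtf, which binds and opens the ribosomal DNA, measured 335, 378, 334 and 378 in the 4 control lines, 389.9, 371, 387 and 362 in the 4 db/db lines and 325 and 321 in both corrected lines (CPM). The corrected values were the lowest, by a small margin. Against db/db Ubtf had a log2 fold change of -0.23 ± 0.07 (edgeR, adjusted p = 0.0324), a call lost under library-size scaling, and against control one of -0.14 ± 0.07 (adjusted p = 0.15).

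The remaining Pol I factors were not called in any of the 3 comparisons. Taf1d, an SL1 subunit, measured 219.6, 153, 201 and 162 in the 4 control lines, 163, 202, 173 and 221 in the 4 db/db lines and 138 and 142 in both corrected lines (CPM). Both corrected lines were the lowest of the 10, but A5 and db7 lines were high and B1 and db5 lines low, and the log2 fold change against db/db was -0.44 ± 0.16 (edgeR, adjusted p = 0.0563). Taf1a and Taf1b had log2 fold changes of -0.32 and -0.13 against db/db (edgeR, adjusted p = 0.103 and 0.383). Ttf1, which binds terminator elements of the ribosomal DNA, measured 28.4, 45.2, 29.7 and 45.2 in the 4 control lines, 30.8, 28.3, 31.6 and 32.2 in the 4 db/db lines and 42.7 and 43.96 in both corrected lines (CPM). The B1 and corrected lines were high and all others low, so the split did not follow the groups (log2 fold change 0.50 ± 0.18 against db/db, edgeR adjusted p = 0.0579).

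Of 10 Pol III subunits, 5 fell and 2 rose against db/db, where 18.0% of all genes fell and 18.7% rose. Against control 6 fell and 2 rose, where 17.0% fell and 16.2% rose, so the share of rises was near that of all genes in both. Polr3g rose and its alternative Polr3gl fell in both comparisons. Polr3g lies at chr13:81673843-81711013, minus strand, and its promoter window is printed above. It measured 94.2, 90.02, 88.5 and 93.4 in the 4 control lines, 94.1, 85.8, 97.9 and 91.7 in the 4 db/db lines and 116 and 113 in both corrected lines (CPM). Both corrected lines exceeded all others, which lay close together. Its log2 fold change was 0.31 ± 0.06 against db/db (edgeR, adjusted p = 0.00479) and 0.32 ± 0.06 against control (adjusted p = 0.00453), and neither call held with the shared name as the unit or without corrected line 1. Polr3gl, at chr3:96577872-96594181, minus strand, measured 14.03, 9.70, 13.9 and 9.12 in the 4 control lines, 14.02, 13.5, 14.5 and 14.4 in the 4 db/db lines and 8.16 and 7.13 in both corrected lines (CPM). The B1 control lines were low too, between the corrected lines and the other 6. Its log2 fold change was -0.89 ± 0.19 against db/db (edgeR, adjusted p = 0.00522) and -0.61 ± 0.18 against control (adjusted p = 0.0292). The second call was lost when corrected line 1 or line 2 was left out, and also with the shared name as the unit, under library-size scaling and without the A5 lines; without corrected line 2 the first was lost as well.

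The ratio of the counts of Polr3g to Polr3gl within a line does not depend on scaling between libraries. It was 6.72 and 6.38 in the A5 control lines, 9.28 and 10.2 in the B1 lines, 6.33 to 6.73 in the 4 db/db lines, and 14.2 and 15.8 in the corrected lines. Both corrected lines were thus above all others and the B1 lines next, while the A5 and db/db values overlapped. Polr3g itself was alike in A5 and B1 lines (means of 91.4 and 91.7 CPM), so their ratios differed through Polr3gl. Most genes around Polr3gl were also lower in B1 than A5 and in corrected than db/db lines, as given below. The part of this in the ratio was not tested. The SD was 1.11 in the corrected lines (n = 2), 1.90 in control (n = 4) and 0.212 in db/db lines (n = 4). Corrected for transcript length, the ratio was 6.65 and 7.38 in the corrected lines and 2.96 to 4.78 in the others. The 5 genes whose log2 CPM followed Polr3g most closely over the 10 lines, of 8767 ranked by Pearson correlation, were Tapt1 (0.98), C9orf72 (0.98), Adss (0.98), Daam1 (0.97) and Zfand5 (0.97). All points share the same 10 lines, among which the corrected pair lies farthest out.

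**Figure D3:**
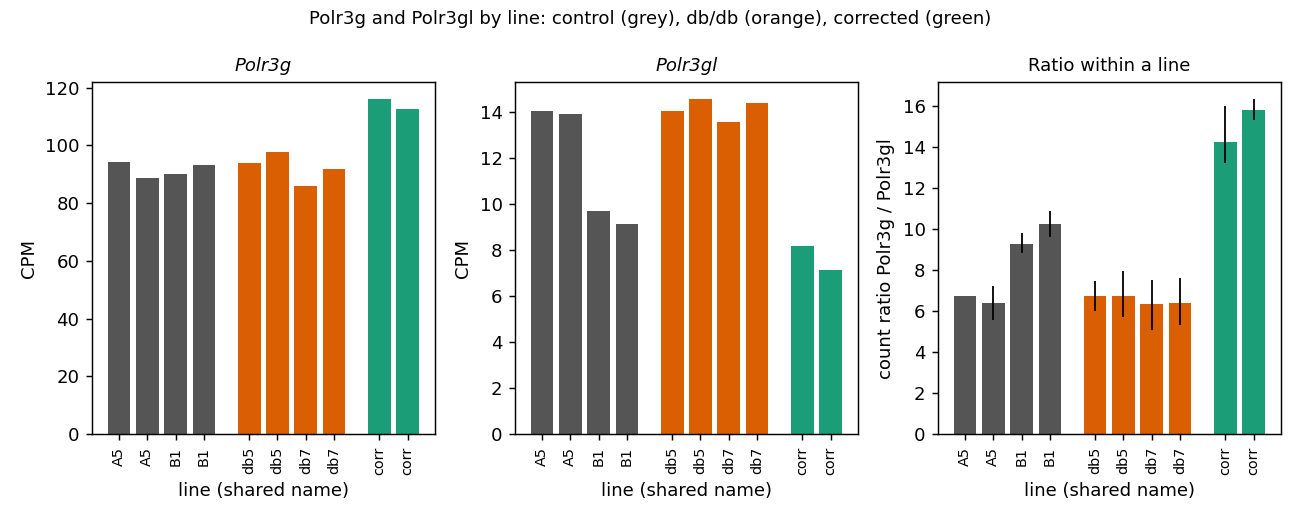
Bars show CPM of Polr3g (left), CPM of Polr3gl (middle) and the ratio of their counts (right) for each line, and vertical lines in the right panel span the libraries of a line. The corrected lines (green) have the highest Polr3g, the lowest Polr3gl and ratios of 14.2 and 15.8, and the B1 control lines have ratios of 9.28 and 10.2.

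Polr3c, which pairs with either of these subunits in the initiation trimer, had the largest fall of all members. It measured 62.4, 45.8, 64.8 and 43.5 in the 4 control lines, 67.4, 68.9, 65.9 and 66.2 in the 4 db/db lines and 33.2 and 32.5 in both corrected lines (CPM). The db/db and A5 lines were high, the B1 lines lower and the corrected lines lowest, without overlap of the corrected lines with any other. The log2 fold change of Polr3c was -1.03 ± 0.16 against db/db (edgeR, adjusted p = 0.00108) and -0.72 ± 0.16 against control (adjusted p = 0.00692); a short RNA gene model overlaps it on the same strand. Polr3f, the other trimer subunit, measured 37.8, 36.4, 33.8 and 37.1 in the 4 control lines, 40.3, 42.8, 41.3 and 47.9 in the 4 db/db lines and 39.1 and 38.4 in both corrected lines (CPM). Its corrected values lay between the control and db/db ranges (log2 fold change -0.15 ± 0.08 against db/db, edgeR adjusted p = 0.179).

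Of the catalytic subunits of Pol III, Polr3a fell in both comparisons and Polr3b rose against db/db. Polr3a, the largest, measured 74.6, 78.3, 74.3 and 76.6 in the 4 control lines, 74.4, 73.6, 73.3 and 77.2 in the 4 db/db lines and 65.97 and 66.4 in both corrected lines (CPM). Its corrected values were the lowest of the 10 by a narrow margin, and the log2 fold change was -0.17 ± 0.06 against db/db and -0.20 ± 0.06 against control (edgeR, adjusted p = 0.0326 and 0.0203). Polr3b, its partner at the active site, measured 99.6, 105, 95.01 and 103 in the 4 control lines, 82.8, 76.8, 85.3 and 87.3 in the 4 db/db lines and 98.6 and 101 in both corrected lines (CPM). The 4 db/db lines were below all others, and the corrected lines lay within the control range. It rose by 0.27 ± 0.07 on the log2 scale against db/db (edgeR, adjusted p = 0.0123) and was at -0.01 ± 0.07 against control (adjusted p = 0.933). Polr3d and Polr3e, which form a heterodimer, fell in both comparisons: Polr3d at -0.53 and -0.43 and Polr3e at -0.35 and -0.44 on the log2 scale (edgeR, adjusted p from 0.00358 to 0.0145). Polr3k, a small subunit that acts in cleavage and termination, rose against control (0.32, edgeR adjusted p = 0.033) and stood at 0.23 against db/db (adjusted p = 0.102).

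Of the 11 Pol III factors, 3 fell and 1 rose against db/db, and 2 fell and 0 rose against control. These shares were no larger than those of all genes called (36.7% and 33.2%). TFIIIB brings Pol III to its start site. Its subunit for type 3 promoters, Brf2, measured 16.4, 16.5, 15.7 and 16.04 in the 4 control lines, 16.97, 17.3, 16.2 and 15.6 in the 4 db/db lines and 11.99 and 12.8 in both corrected lines (CPM). Both corrected lines were below all others, with log2 fold changes of -0.42 ± 0.08 and -0.38 ± 0.08 against db/db and control (edgeR, adjusted p = 0.00369 and 0.00626). Brf1, which serves the gene-internal promoters of transfer RNAs, measured 24.1, 27.5, 25.5 and 28.1 in the 4 control lines, 25.9, 26.4, 26.3 and 26.1 in the 4 db/db lines and 25.2 and 24.00 in both corrected lines (CPM). The corrected values were just below all 4 db/db values but overlapped the control lines (log2 fold change -0.09 ± 0.08 against db/db, edgeR adjusted p = 0.396). Bdp1, the TFIIIB subunit common to both promoter types, measured 83.7, 80.2, 82.9 and 81.7 in the 4 control lines, 91.6, 84.5, 97.5 and 121 in the 4 db/db lines and 83.95 and 81.2 in both corrected lines (CPM). The db/db lines were all above control, db/db line 4 by far the most, and the corrected lines lay near the control level (log2 fold change -0.26 ± 0.12 against db/db, edgeR adjusted p = 0.119).

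TFIIIC binds the internal promoter of transfer RNA genes. Its 6 subunits gave 2 falls and 1 rise against db/db, where 18.0% of all genes fell and 18.7% rose. Gtf3c2 measured 144, 152, 140.2 and 152 in the 4 control lines, 152, 153, 149 and 157 in the 4 db/db lines and 116 and 116 in both corrected lines (CPM). The corrected lines were the lowest of the 10, with log2 fold changes of -0.40 ± 0.06 against db/db and -0.34 ± 0.06 against control (edgeR, adjusted p = 0.000723 and 0.00188); another gene model, Gm29609, overlaps it on the same strand. Gtf3c6 measured 54.4, 47.7, 51.3 and 48.6 in the 4 control lines, 59.7, 55.4, 59.05 and 59.3 in the 4 db/db lines and 43.4 and 44.4 in both corrected lines (CPM). The groups formed 3 bands, db/db highest and corrected lowest. Gtf3c6 fell against db/db, at -0.41 ± 0.07 on the log2 scale (edgeR, adjusted p = 0.00203), and stood at -0.20 ± 0.07 against control (adjusted p = 0.0524). Gtf3c1, the largest subunit, rose against db/db (0.33, edgeR adjusted p = 0.0249) and stood at 0.28 against control (adjusted p = 0.0521). Gtf3c3, Gtf3c4 and Gtf3c5 were not called, at 0.14, -0.20 and -0.10 against db/db (edgeR, adjusted p = 0.214, 0.255 and 0.664).

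Gtf3a (TFIIIA), the zinc finger protein that binds the 5S gene, measured 46.3, 39.4, 48.6 and 37.8 in the 4 control lines, 42.9, 42.7, 41.5 and 37.3 in the 4 db/db lines and 49.2 and 49.9 in both corrected lines (CPM). The corrected values were the highest of the 10, but close to the A5 lines (log2 fold change 0.27 ± 0.11 against db/db, edgeR adjusted p = 0.0746). Maf1, the repressor of Pol III, measured 109, 81.9, 112 and 81.4 in the 4 control lines, 88.1, 70.5, 91.2 and 65.1 in the 4 db/db lines and 80.05 and 79.8 in both corrected lines (CPM). It varied by name, from the A5 lines at the top to the db7 lines at the bottom, with the corrected lines in between (log2 fold change 0.02 ± 0.17 against db/db, edgeR adjusted p = 0.935).

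In db/db against control lines, 4 members rose (Gtf3c6, Polr1b, Polr3f and Rrn3) and 1 fell (Polr3b) in edgeR's test. Of all genes tested, 7.41% rose, 9.5% fell and 16.9% were called, and the members' median log2 fold change of 0.01 stood beside -0.00 for all genes. The share of members called was therefore close to the background. Of 7 fibroblast markers, 5 fell and 0 rose in the same comparison (median -0.84), and the part of this difference in the members' values was not tested. Polr3b had a log2 fold change of -0.28 ± 0.06 (edgeR, adjusted p = 0.00993). The rises were 0.25 ± 0.07 for Polr3f, 0.21 ± 0.06 for Gtf3c6, 0.18 ± 0.05 for Rrn3 and 0.17 ± 0.04 for Polr1b (edgeR, adjusted p = 0.0326, 0.0336, 0.0404 and 0.0284). In 7 members all db/db lines were above all control lines (11.1% of all genes), these 4 and Polr3c, Polr1e and Bdp1, and in Polr3b alone they were all below (12.2%). Under library-size scaling 0 members rose and Polr3b fell. With the shared name as the unit edgeR called 0 members (3 at an unadjusted p under 0.05, lowest adjusted p = 0.221), where 0.161% of genes were called, and with the corrected lines also as 1 unit it called 0 members (0 at an unadjusted p under 0.05) and 0.0268% of genes. The count was 1 without control line 2, 2 without control line 4 or db/db line 1, and 3 without any of the other db/db lines.

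Lines of 1 genotype also differed from each other, mostly by shared name. The median absolute log2 difference over the 33 members was 0.028 to 0.097 between lines of 1 name. The 2 corrected lines were counted as such a pair. The difference was 0.098 to 0.150 between names of 1 group and 0.098 to 0.162 between control and db/db lines. Between a corrected line and a control or db/db line it was 0.235 to 0.382. Between B1 and A5 controls, 10 members differed by over 0.3 on the log2 scale, compared with 3 between db7 and db5 and 3 between db/db and control. The count was 18 for corrected against db/db and 16 for corrected against control. Control and db/db each pool 2 names, so counts between groups and between single names are not alike. The share of all genes over 0.3 was not computed. Higher in B1 were Ttf1 (0.64), Gtf3c5 (0.58) and Gtf3c4 (0.32), and among those lower were Polr3gl (-0.57), Polr3c (-0.51), Maf1 (-0.43), Taf1d (-0.41), Taf1a (-0.41) and Taf1b (-0.33).

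Several of these members are neighbours, and the genes around them differed in the same direction. Gtf3c5, Gtf3c4 and Ttf1 lie close together on chromosome 2, and all 23 other genes between chr2:27009926-29960371 with at least 10 CPM were higher in B1 than in A5, with a median of 0.42. Around Polr3gl and Polr3c (chr3:95830124-98339990), 0 of 25 such genes were higher in B1 and the median was -0.47. In the same window 23 of 25 genes were lower in corrected than in db/db lines, 19 fell and 0 rose, with a median of -0.71. Around Gtf3a and Polr1d on chromosome 5, where neither member differed by over 0.3 between these names, 12 of 22 were higher. The part of these regional differences in the values of the members was not tested. The genes of chromosomes 3, 6 and 15 had medians of 0.45 in db7, 0.25 in B1 and 0.43 in A5 lines, respectively. On chromosome 3 the medians were also -0.219 in B1, -0.219 in corrected, 0.10 in db5 and -0.01 in A5 lines. These medians are on the log2 scale, relative to the median of the other names. In the window around Polr3gl and Polr3c, the median difference of db7 and db5 lines was 0.01. Without the members on chromosomes 3, 6 and 15, 13 of 28 members fell and 3 rose against db/db, and 11 fell and 2 rose against control. Over all chromosomes, 18.0% of genes fell and 18.7% rose against db/db, and 17.0% fell and 16.2% rose against control.

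**Figure D4:**
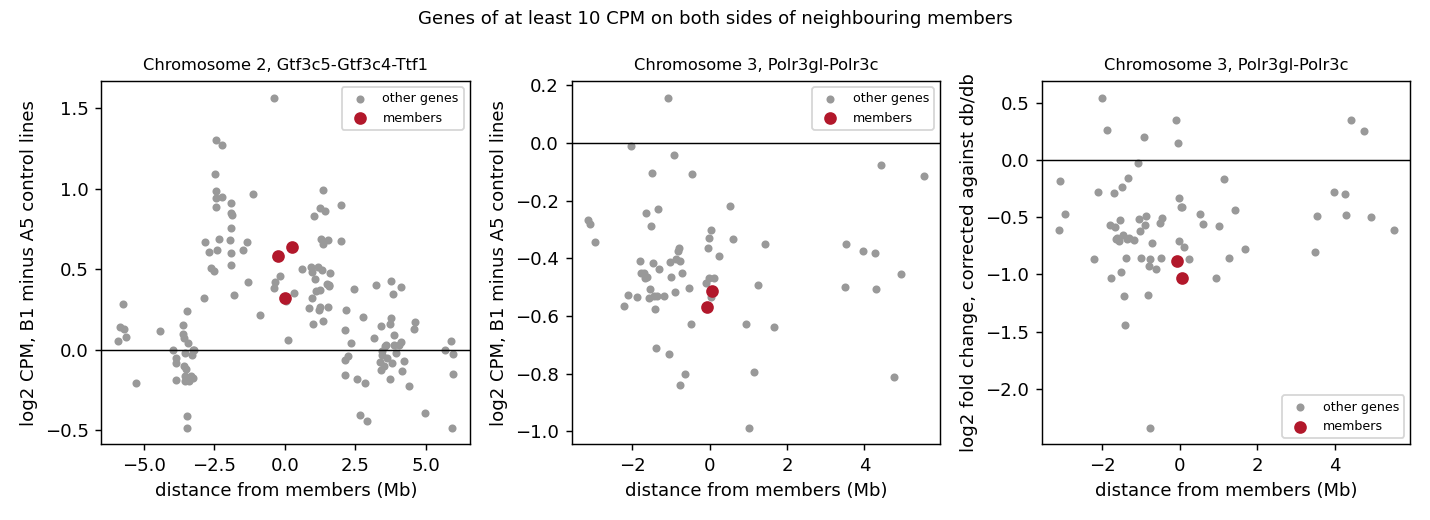
Points are genes of at least 10 CPM, placed by distance in megabases from the midpoint of neighbouring members (red), with the log2 CPM difference of B1 and A5 control lines (left and middle) or the log2 fold change of corrected against db/db lines (right). On chromosome 2 the genes near Gtf3c5, Gtf3c4 and Ttf1 stand above 0, and on chromosome 3 most genes near Polr3gl and Polr3c stand below 0 in both panels, with medians of -0.47 and -0.71.

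Products of these enzymes are mostly without a poly(A) tail and were hardly captured. Of those listed, Rn45s was not analysed here, Rny1, Rny3 and Vaultrc5 did not pass the filter, and Rmrp, Rpph1, Rn7sk and Gm42418, a gene model known to overlap ribosomal RNA sequence, were tested and not called. The second library of db/db line 2 stood apart. Gm42418 took 4.81% of its counts, against 0.514% in the first library of that line and 0.0688% to 0.150% in the other 17 libraries. Rn7sk, the 7SK RNA, stood at 94.3 CPM there and at 1.77 to 5.53 CPM in the 17 libraries of other lines. Rpph1, the RNA of RNase P, stood at 55.5 against 1.58 to 3.93 CPM, and Rmrp at 49.6 against 0.518 to 1.85 CPM. Without that library the members' counts were the same, 5 called between db/db and control and 18 between corrected and db/db.

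**Figure D5:**
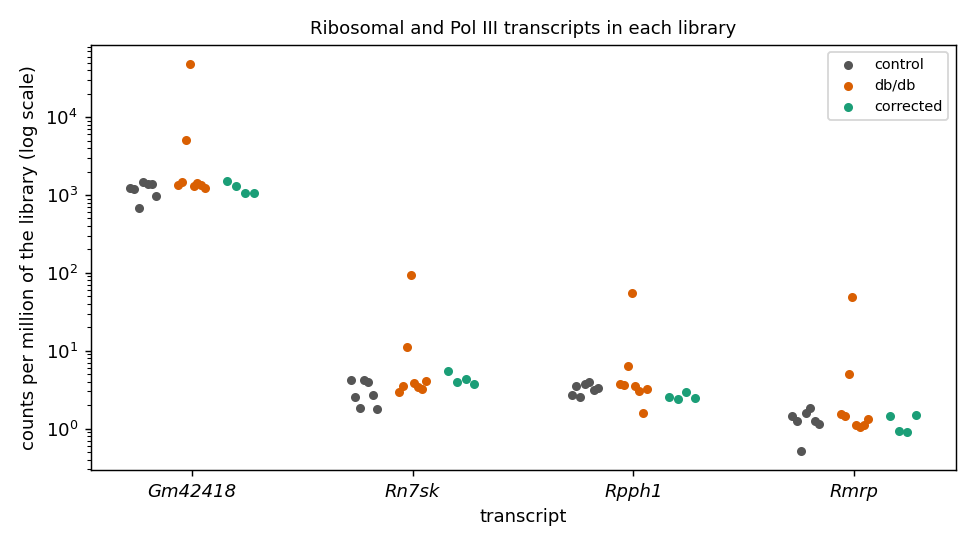
Each point is a library, with its CPM on a log axis (not adjusted by TMM) for 4 transcripts of Pol I or Pol III, coloured by group. A single db/db library lies far above the rest for all 4, at 94.3 CPM for Rn7sk, and the other library of that line is second highest.

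Related lists were read beside the members, on the same edgeR fit of corrected against db/db lines, in which 18.0% of all genes fell, 18.7% rose and 36.7% were called. Of 14 genes for maturation and termination of Pol III transcripts, 10 fell and 0 rose (median -0.29), among them Elac2, which trims the 3′ end of transfer RNAs (-0.57), and Pop1, a protein of RNase P and RNase MRP (-0.38). Of 14 factors of ribosomal DNA chromatin and Pol I regulation, 5 fell and 1 rose (median -0.06): Nolc1 (-0.67), Tcof1 (-0.43), Ddx21 (-0.39), Ncl and Npm1 fell, and Kdm2b rose (0.30). Of 7 factors of the SNAPc complex and type 3 promoters, 2 fell and 0 rose, Snapc3 (-0.41) and Zfp143 (-0.31). The shares called in the lists of Pol I regulation and SNAPc were near or below that of all genes. Of 7 core subunits of Pol II, which makes messenger RNA, 5 fell and 0 rose (median -0.36), with Polr2d at -0.64.

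Among 15 growth regulators, 7 fell and 2 rose against db/db (median -0.21), where 18.0% of all genes fell, 18.7% rose and 36.7% were called. Myc, which raises transcription by both enzymes, fell by 0.90 and its partner Max by 0.74 on the log2 scale, and Rb1 and Rbl2, of the family that restrains both, rose by 0.76 and 0.49. Counts of Myc, and of the pluripotency markers Pou5f1, Sox2 and Klf4, may include transcripts of the reprogramming vector, which were not told apart here. Of 6 markers of extraembryonic endoderm, 5 rose and 0 fell against db/db, to a sum of 17.5 to 19.5 CPM from 9.12 to 16.8. Of 4 neural markers, 2 fell and 0 rose (median -0.66), Pax6 at -1.74 and Tubb3 at -1.63. Of 2 mesoderm markers tested Mixl1 rose (2.09), while the 10 pluripotency markers gave 4 falls and 1 rise. The neural and pluripotency lists are short, and their shares called were not far from that of all genes. The part of these regulator and marker differences in the values of the members was not tested.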

How the data were processed

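The authors deposited estimated counts per gene for 19 libraries. The submitters' processing notes name kallisto and GRCm38; its version, index and strand setting: not given in the sources used here. Because such counts share reads among similar transcripts, overlapping or near-identical genes are uncertain; 79.7% of values were whole within 1e-06. Of 52143 identifiers, 51250 matched GENCODE M21 names (99.4% of counts). Poly(A) selection leaves out most products of both enzymes.

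Counts were rounded per library and summed per line, because duplicates are not stated to be separate cultures. All 3 groups entered 1 edgeR 4.0.16 quasi-likelihood fit in R 4.3.3 (TMM scaling, filterByExpr, 19700 genes, Benjamini-Hochberg over all genes, threshold 0.05), checked on simulated data. CPM values carry TMM scaling. Alternatives used limma 3.58.1 and DESeq2 1.42.0. One member counts in all totals but its values are not reported here and it is left out of the figures. Members and lists were chosen with earlier results of these data known; Cd3eap, Znrd1 and Twistnb and the unit that sums the corrected lines were added after seeing the data. Values per line are given for the catalytic subunits, Polr3g, Polr3gl, Rrn3, Ubtf, Taf1d, Ttf1, Gtf3a, Brf1, Brf2, Bdp1, Maf1 and the 6 called members of lowest p in each comparison.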

Additional observations from a re-analysis of the deposited data

Results flagged for a closer look

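In the 4 db/db lines, Gtf3c6 was lower in line 2, at 55.4 CPM, than in the other lines, at 59.0 to 59.7 CPM, a gap that exceeds Dixon's 95% critical value for groups of 4. It was the only such case in 66 groups of 4 lines (33 members in control and in db/db lines), and chance alone flags about 1 in 20 groups. The db/db line 2 value was still above all 4 control values.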

How the results depend on the processing

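For db/db against control (5 members called), the count was 1 with library size alone, 1 with no filter on low counts, 1 with only the groups compared, 2 without the B1 lines, and 0 with the shared name as the unit, with the corrected lines also as 1 unit (0 at an unadjusted p under 0.05) and with limma-voom (6 at an unadjusted p under 0.05). Leaving out 1 line at a time gave 1 to 5. For corrected against db/db (18 called), it was 10 with the shared name as the unit, 0 with the corrected lines as 1 unit and 9 with limma-voom, and 10 to 19 when leaving out 1 line. For corrected against control (16 called), it was 6, 0 and 6 under those settings, 25 with the library as the unit, and 4 to 17 when leaving out 1 line. With the library as the unit, 12 members were called for db/db against control with no replicate block and 9 with a replicate block. Same-numbered duplicates deviated together by correlations of 0.0113 to 0.531, all positive, over 12 pairs of control and db/db lines. Whether the numbers mark a shared batch was not tested, and they were not used as pairs in the main fit. Control line 1 has only a first library, so summing per line does not balance the numbers there. The corrected libraries carry letters in place of numbers and could not enter the block. No called value reversed its direction. DESeq2 size factors, upper quartile scaling, the DESeq2 test and a filter of at least 1 CPM in 2 lines left the counts within 1.5 times. The cause was not tested. There were 2 corrected lines, and lines of 1 name were near copies. The member with the fewest counts, Polr3gl, had at least 223 in a library, and read depth was not varied.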
